A study of Rattus norvegicus with 4 samples.

Results

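Clusterin, Pgrmc1 and enzymes of steroid conversion were followed in the G and MAT-LyLu sublines of the Dunning R3327 rat prostate tumour. The members were Clu, Pgrmc1, Akr1c14, Srd5a1, Hsd17b4 and Hsd17b10, taken as every probe set that the platform annotation assigns to them. Of these 6 genes, 5 had a named probe set, out of 4736 genes named on the array, and they were read by 9 probe sets. Srd5a1 was matched to none and was not analysed here. The members were chosen by their known ties to androgen response or steroid conversion, with the difference between the lines already seen. Their differences between the lines are therefore given below as a description, with no test.

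G is labelled a non-metastatic and MAT-LyLu a highly metastatic prostate cancer line, and the comparison takes G as the control. No genotype, passage, medium, hormone or other treatment is named for either line, and each line stands for 1 tumour subline. Each line had 2 arrays (replicates 0 and 1), described by the submitters as duplicates with no separate cultures named, so the spread between them may be technical. In RNA from whole cultures, fewer cells of a type and less RNA per cell cannot be told apart.

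Signals are MAS5 intensities as deposited, where MAS5 is the Affymetrix algorithm that summarises the oligonucleotide probes of a probe set. Array medians ran from 2998 to 3156. An array's background level, the 95th percentile over 23 control probe sets for non-rat transcripts, ran from 1891 to 2311. A line under that level on both arrays has only a bound, and the fold is then written "at least". Levels of different probe sets are not comparable with each other, so each gene is compared only with itself. Among lineage markers, 7 of 7 measured fibroblast and smooth muscle genes were above background on both G arrays and 4 of 7 on both MAT-LyLu arrays, with summed signals of 132981 to 140153 and 34784 to 36430. Of 5 measured luminal epithelial markers, Krt8 was above background on both MAT-LyLu arrays and none was on both G arrays (summed signals of 47631 to 48265 and 7447 to 8292). Most of the MAT-LyLu sum was Krt8, at 41435 and 41521 against 1978 and 1691 in G, so the sums do not speak for the other luminal markers. The prostate secretory markers Pbsn and Acp3 were not above background on both arrays of either line. Of 4 leukocyte markers measured, 2 were above background on both arrays in each line, as was 1 of 3 in each of the endothelial, neuroendocrine and basal epithelial lists, with summed signals between 5007 and 8468 in both lines. The part of these markers in the results was not tested.

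The strength of androgens in the prostate is set inside the tissue by steroid-converting enzymes. Steroid reductases such as Srd5a1 make dihydrotestosterone from testosterone. Hydroxysteroid dehydrogenases of the aldo-keto reductase (Akr1c) and short-chain dehydrogenase (Hsd17b) families then reduce or oxidise hydroxyl groups on the steroid and so weaken or restore its activity. Clusterin is a secreted chaperone whose transcript is known for its rise in the rat prostate after castration. Pgrmc1 is a heme-binding membrane protein of the cytochrome b5 family that interacts with cytochrome P450 enzymes.

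The 250 bases before the annotated start of 3 members are shown because they differ in kind and because androgen response motifs are of interest for these genes. They come from RefSeq on the GRCr8 build, and 4 of the 5 measured members had an entry (Pgrmc1, Akr1c14, Hsd17b4 and Hsd17b10). Capitals mark the motifs searched on both strands. These were the GC box GGGCGG, the CCAAT box, the TATA-box forms TATAAA and TATTTAA, the AP-1 site TGANTCA, 1 arm of the androgen response element (AGAACA, which reads TGTTCT on the other strand), the full palindromic androgen response element and the sterol regulatory element. The 1-arm motif lies within the full element.
Pgrmc1, chrX:120698360-120698609, plus strand: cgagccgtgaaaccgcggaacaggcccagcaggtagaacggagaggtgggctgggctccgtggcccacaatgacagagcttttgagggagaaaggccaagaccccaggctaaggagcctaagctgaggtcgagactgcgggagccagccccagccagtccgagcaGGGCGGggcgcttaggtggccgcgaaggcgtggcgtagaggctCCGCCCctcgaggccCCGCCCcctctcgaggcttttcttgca
Akr1c14, chr17:71083185-71083434, minus strand: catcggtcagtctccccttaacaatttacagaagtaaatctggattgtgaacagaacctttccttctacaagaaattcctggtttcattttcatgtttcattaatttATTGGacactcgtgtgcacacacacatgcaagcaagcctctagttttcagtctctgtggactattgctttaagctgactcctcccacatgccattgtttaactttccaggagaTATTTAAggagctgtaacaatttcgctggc
Hsd17b4, chr18:45515177-45515426, plus strand: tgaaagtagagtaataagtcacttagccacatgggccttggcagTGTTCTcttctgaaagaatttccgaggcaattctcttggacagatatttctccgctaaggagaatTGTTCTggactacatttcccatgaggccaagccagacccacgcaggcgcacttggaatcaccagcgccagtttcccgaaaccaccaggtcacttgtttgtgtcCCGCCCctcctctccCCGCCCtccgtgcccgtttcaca

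The Pgrmc1 stretch was 66.8% G or C with 19 CpG dinucleotides, against medians of 51.2% and 5 over 33469 RefSeq promoters of the same length. It held 3 GC boxes, a motif found in 30.5% of those promoters, and no TATA form. The Akr1c14 stretch was of the other kind, at 40.4% G or C with 3 CpG dinucleotides. It held TATTTAA from 30 to 24 bases before the start, a motif present in 4.16% of promoters, and a CCAAT box, present in 34%. Hsd17b4 held the 1-arm androgen motif at 2 places, 206 to 201 and 141 to 136 bases before the start, where 17.5% of promoters hold at least 1, and 2 GC boxes. Hsd17b10, at 56.4% G or C, held a CCAAT box and none of the other motifs. Neither AP-1 sites (6.34% of promoters), TATAAA (12.9%), the sterol regulatory element (0.105%) nor the full androgen response element (0.012%) occurred in these 4 stretches. A match is a match of letters, and no binding was measured here.

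The members split into 3 with large differences between the lines and 2 with small ones. Clu and Akr1c14 signals were lower in MAT-LyLu, the Pgrmc1 signal was higher, and those of Hsd17b4 and Hsd17b10 were slightly higher. Of the 9 probe sets, 8 passed the filter on low signals. Of these 8, 5 had both MAT-LyLu arrays above both G arrays, 2 had both below, and 1 overlapped. Over all 6555 probe sets tested the shares without overlap were 28.5% higher and 38.9% lower in MAT-LyLu, and the members' counts are given beside them only as a description.

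**Figure D1:**
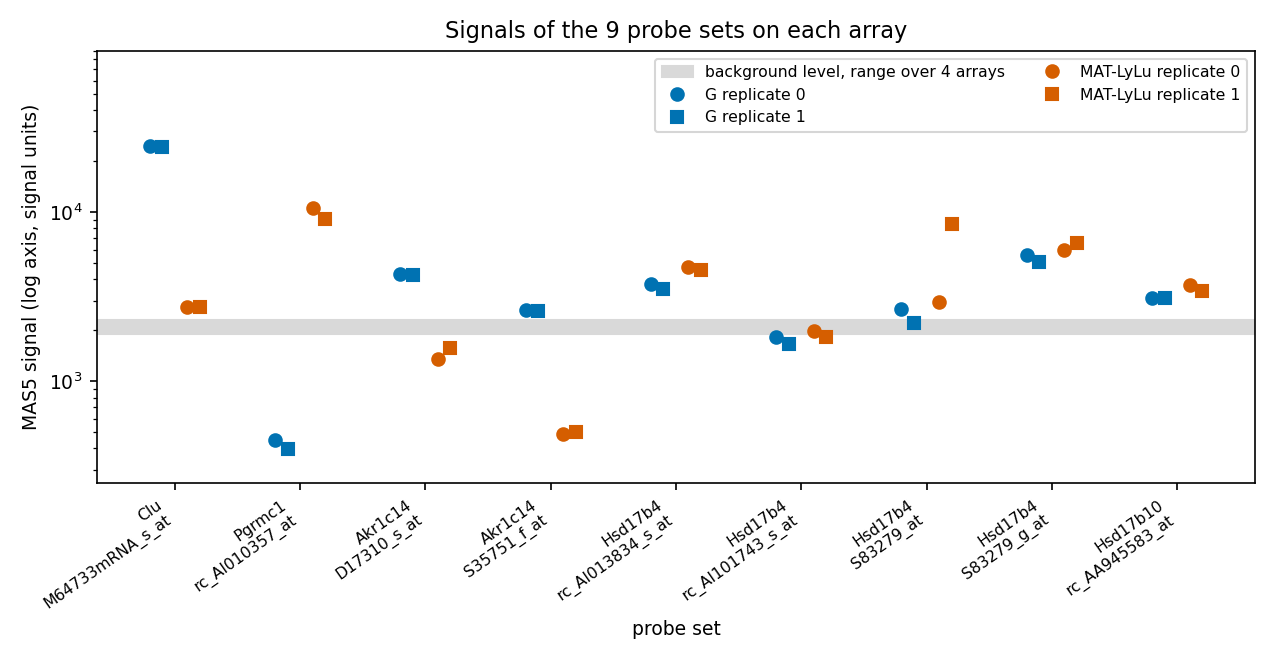
MAS5 signal on a log axis for each of the 9 probe sets, with a circle or square for each array, G in blue and MAT-LyLu in orange; the grey band is the range of the background level over the 4 arrays. Clu stood at 24313 to 24476 in G and 2754 to 2764 in MAT-LyLu, Pgrmc1 lay under the band in G only and both Akr1c14 probe sets under it in MAT-LyLu only, and 1 Hsd17b4 probe set (S83279_at) had its MAT-LyLu arrays far apart.

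Clu, read by 1 probe set (M64733mRNA_s_at), gave 24476 and 24313 on the G arrays and 2764 and 2754 on the MAT-LyLu arrays. The arrays of a line were nearly superimposed, the lines lay far apart, and both MAT-LyLu arrays were above background, so the fold is measured in both lines. The mean was 24395 ± 115 (SD, n = 2) in G and 2759 ± 7.04 (SD, n = 2) in MAT-LyLu, which is 8.80-fold lower, a log2 difference of -3.14 with a standard error (SE) of 0.08 from the limma fit. Only 27 tested probe sets had a lower difference, which places Clu 28th from the lowest of 6555. The "_s" suffix marks a probe set that can also read a related transcript.

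Pgrmc1, read by rc_AI010357_at, went the other way. Its signals were 448 and 399 on the G arrays and 10526 and 9045 on the MAT-LyLu arrays. Both G arrays were far under the background level, and both MAT-LyLu arrays were well above it. The mean was 423 ± 34.6 in G and 9785 ± 1048 in MAT-LyLu (SD, n = 2 each). Taking each G array at its background level, the signal was at least 4.72-fold higher in MAT-LyLu. The fitted log2 difference of 4.48 (SE 0.11), 14th from the highest of 6555, rests on G values with no measured size. Pgrmc2, the near relative, was not analysed here.

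Akr1c14, the rat hydroxysteroid dehydrogenase that reduces dihydrotestosterone to a weaker diol, was read by 2 probe sets that went the same way. D17310_s_at gave 4333 and 4263 on the G arrays and 1361 and 1561 on the MAT-LyLu arrays. G was above background on both arrays and MAT-LyLu on neither. The means were 4298 ± 49.9 and 1461 ± 141 (SD, n = 2 each), at least 2.05-fold lower in MAT-LyLu, with a fitted log2 difference of -1.55 (SE 0.10). The other probe set, S35751_f_at, gave 2640 and 2587 in G and 484 and 501 in MAT-LyLu. It showed the same order of the lines, at least 1.25-fold lower, but was among the 25% of probe sets with the lowest mean log2 signal and was left out of the fit. That exclusion depends on the scale of the filter, which was settled after results under both scales had been seen. With the filter on the mean of linear signals S35751_f_at entered the fit, with a log2 difference of -2.37 (SE 0.10), and all 9 probe sets were fitted. Its "_f" suffix marks probes shared across a gene family.

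Akr1c3 and Akr1c13, of the same subfamily, gave overlapping signals in the lines. Akr1c3 gave 1923 and 2253 on the G arrays and 2052 and 2171 on the MAT-LyLu arrays on its brighter probe set (E06822cds_s_at), and its log2 difference of 0.02 (SE 0.10) did not pass the limma test (adjusted p = 0.91). Akr1c13 was under background on all 4 arrays, at 1718 ± 99.2 in G and 1821 ± 167 in MAT-LyLu (SD, n = 2 each). Both were named after their values were seen. The lines overlapped for each, and these signals near background limit what could be detected. Akr1c1, Akr1c2 and Akr1c18 were not analysed here.

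Hsd17b4 encodes the peroxisomal bifunctional enzyme, which hydrates and oxidises acyl-CoA chains and can also oxidise estradiol. Its 4 probe sets were all somewhat higher in MAT-LyLu, by amounts that varied. On rc_AI013834_s_at the signals were 3741 and 3500 in G and 4761 and 4574 in MAT-LyLu, 1.29-fold higher (log2 difference 0.37, SE 0.08). On S83279_g_at they were 5609 and 5045 in G and 5974 and 6549 in MAT-LyLu, 1.18-fold higher (log2 difference 0.23, SE 0.09). Neither set of arrays overlapped between the lines. On rc_AI101743_s_at the signals were 1832 and 1670 in G and 1981 and 1819 in MAT-LyLu, close to or under background, and the lines overlapped (log2 difference 0.12, SE 0.10).

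The 4th Hsd17b4 probe set, S83279_at, stood apart through 1 array. Its signals were 2690 and 2196 in G and 2959 and 8449 in MAT-LyLu, so that MAT-LyLu replicate 1 was far above the other 3 arrays. The 2 MAT-LyLu arrays differed by 1.51 on the log2 scale, where the median gap over all tested probe sets was 0.09, and 4 of 6555 probe sets, S83279_at among them, had a gap that large. The log2 difference between the lines was 1.04 (SE 0.40) with all arrays, 0.28 without MAT-LyLu replicate 1 and 1.79 without MAT-LyLu replicate 0. S83279_g_at, designed on the same accession, gave 0.17 and 0.30 in the same runs and did not share the high value. The mean over the 4 probe sets of Hsd17b4 gave 0.44 and their median 0.30.

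**Figure D2:**
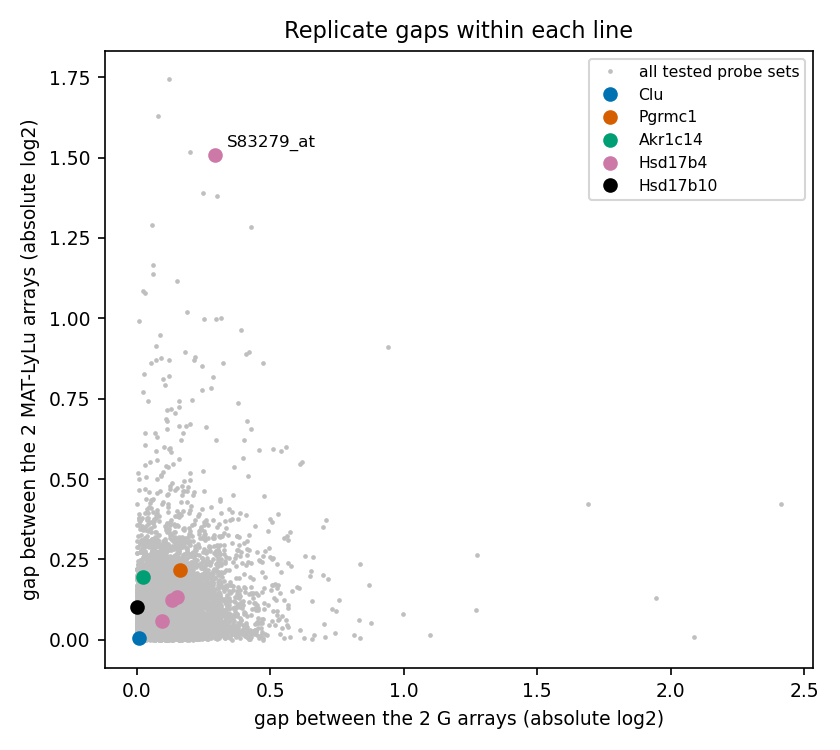
Absolute log2 gap between the 2 G arrays (x axis) and between the 2 MAT-LyLu arrays (y axis) for each tested probe set in grey, with the 8 tested member probe sets in colour. S83279_at of Hsd17b4 lies at a gap of 1.51 between the MAT-LyLu arrays and 0.29 between the G arrays, and the other member probe sets are at most 0.22 apart in either line.

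Hsd17b10, a mitochondrial short-chain dehydrogenase of branched-chain amino acid breakdown that also oxidises steroids, differed least among the members with a single probe set. Its signals on rc_AA945583_at were 3099 and 3098 in G and 3689 and 3437 in MAT-LyLu. The MAT-LyLu arrays were both above the G arrays, and the difference between the lines was larger than the gap within MAT-LyLu. The means were 3098 ± 0.686 and 3563 ± 178 (SD, n = 2 each), 1.15-fold higher in MAT-LyLu (log2 difference 0.20, SE 0.08), and 19.5% of tested probe sets had a higher difference.

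**Figure D3:**
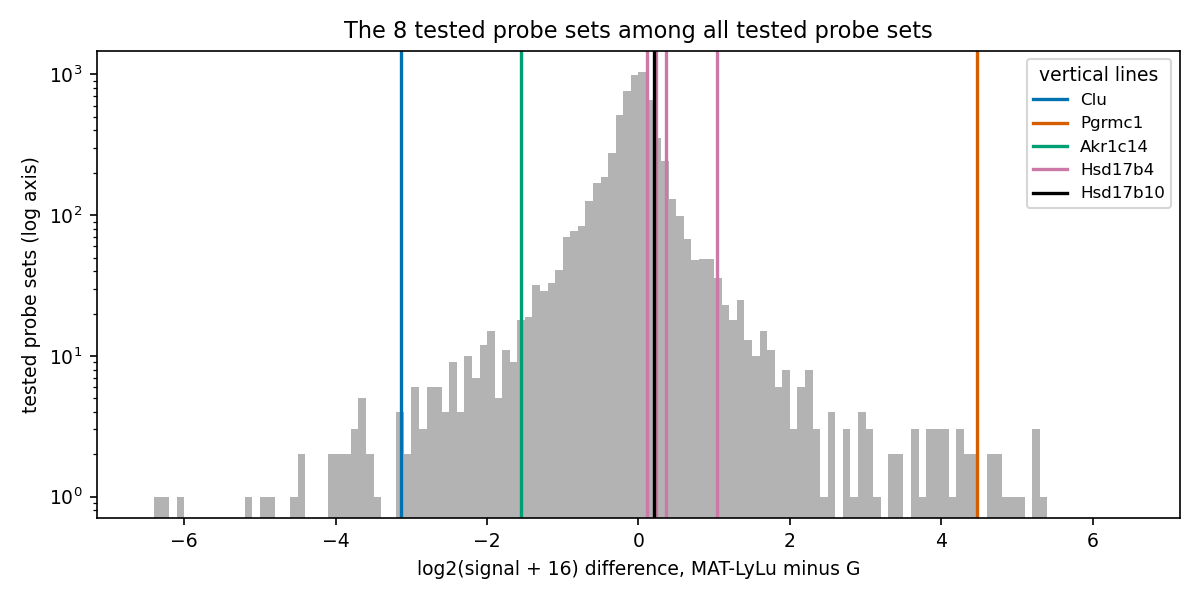
Histogram (log axis) of the log2 difference, MAT-LyLu minus G, over 6555 tested probe sets, with vertical lines at the 8 tested member probe sets. Pgrmc1 (4.48, with G under background) and Clu (-3.14) lie in the tails, Akr1c14 is at -1.55, and Hsd17b10 and 3 of the 4 Hsd17b4 probe sets lie near the bulk, between 0.12 and 0.37.

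The genes with the most similar profile were found by the root mean square difference of log2 values over the 4 arrays, each probe set centred on its own mean. With 2 lines, this measure mostly reads the size of the difference between them. It uses signals as deposited, so it rests partly on values with no measured size where a line was under background, as G was on both arrays for Pgrmc1 and Penk and MAT-LyLu for Akr1c14 and Tfrc. Apoc1 (0.058) and Ifitm3 (0.060) were nearest to Clu, at 8.70-fold and 8.12-fold lower in MAT-LyLu, although Apoc1 was above background on only 1 MAT-LyLu array. Krt8 (0.082) and Penk, a neuropeptide precursor, were nearest to Pgrmc1. Tfrc (0.025), the transferrin receptor, and Psap (0.036), the saposin precursor, were nearest to Akr1c14. Ywhae (0.008) and Gpd1 (0.011) were nearest to Hsd17b4 on its brightest probe set, and Kcnh7 (0.006) and Ehd4 (0.007) to Hsd17b10, with Kcnh7 under background on all 4 arrays.

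Beyond the members, 6 lists of androgen and steroid genes were tested with limma across all probe sets, the brightest tested probe set standing for its gene. Of 176 listed genes, 119 were measured and 34 of these were under background on all 4 arrays on each of their probe sets. Of 92 tested, 13 rose, 18 fell and 61 did not pass at an adjusted p under 0.05, with a median log2 difference of 0.00. Over all 3867 genes tested, 33.3% passed, 13.7% higher and 19.6% lower, with a median of -0.02, so the share among these genes, 33.7%, was near the background. The count of rises fell from 13 to 8 without G replicate 1 and to 8 without MAT-LyLu replicate 0.

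As over all genes tested, most enzymes that interconvert steroids did not pass the test. Of 14 tested, 2 rose, 1 fell and 11 did not pass (median log2 difference -0.02). The share that passed was 21.4%, against 33.3% over all genes tested. Hsd17b8, a mitochondrial dehydrogenase of the same family as Hsd17b10, fell 1.59-fold, with 4874 ± 539.6 in G and 3046 ± 59.8 in MAT-LyLu (adjusted p = 0.0012). Hsd17b12, an endoplasmic reticulum reductase of long-chain acyl groups and estrone, rose 1.36-fold from 8360 ± 647 to 11426 ± 1762, with both of its probe sets higher (adjusted p = 0.025). Srd5a3, a polyprenol reductase related to the steroid reductases, rose 1.24-fold from 4799 ± 304 to 5953 ± 213 (adjusted p = 0.027). Neither gene's arrays overlapped between the lines, but neither call held in every run with 1 array left out, where fewer arrays were tested. Hsd17b12 missed the threshold once G replicate 1 (adjusted p = 0.086) or MAT-LyLu replicate 0 (0.15) was left out. Srd5a3 missed it once G replicate 0 (0.12) was left out, and likewise for either MAT-LyLu array (0.059 for replicate 0 and 0.14 for replicate 1). When single arrays were dropped, at most 1 gene of the list rose and 1 or 2 fell.

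Of the other dehydrogenases given in any case, none that was tested gave a call. Hsd17b1, which makes estradiol, stood at 5874 ± 759.6 in G and 5599 ± 299 in MAT-LyLu (log2 difference -0.06, SE 0.11, adjusted p = 0.70). Hsd17b2, which inactivates testosterone and estradiol, stood at 2861 ± 234 and 2977 ± 31.8 (0.06, SE 0.09, adjusted p = 0.67). The cortisone-reducing Hsd11b1 had a log2 difference of -0.28 (SE 0.10, adjusted p = 0.077), and the opposing Hsd11b2 one of -0.13 (SE 0.09, adjusted p = 0.34). Hsd17b3, Hsd17b6 and Hsd17b7 were under background on all 4 arrays, and Hsd17b3 and Hsd17b7 were not tested. Akr1b1, or aldose reductase, was named after its values were seen, because its 2 probe sets disagreed. M60322_at gave 23396 and 22428 on the G arrays, against 29870 and 13301 on the MAT-LyLu arrays, and missed the threshold (adjusted p = 0.68), while M60322_g_at rose 1.87-fold (adjusted p = 2.3e-04). As with S83279_at of Hsd17b4, 1 MAT-LyLu array of M60322_at lay far from the other.

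Genes of steroid synthesis from cholesterol held 1 rise, 3 falls and 9 that did not pass, of 13 tested (median log2 difference 0.00). That is 30.8% called, near the 33.3% over all genes tested. Soat1, which esterifies cholesterol for storage, rose from 3047 ± 1.99 in G to 6129 ± 477 in MAT-LyLu, a log2 difference of 1.00 (adjusted p = 7.6e-05). Tspo, the outer mitochondrial cholesterol-binding translocator protein, fell 1.35-fold from 22961 ± 828 to 17032 ± 258 (adjusted p = 0.0089), and Fdx1, the electron donor of mitochondrial P450 enzymes, fell 1.27-fold (adjusted p = 0.011). Nr5a1, a transcription factor of steroid-producing cells, fell at least 1.20-fold, with G close to background (adjusted p = 0.0028). Star, Cyp17a1 and Cyp19a1 were under background on all 4 arrays. Dropping MAT-LyLu replicate 0 (adjusted p = 0.077) or 1 (0.11) ended the call of Tspo, dropping MAT-LyLu replicate 1 that of Fdx1 (0.053), and Nr5a1 no longer passed when signals were floored at background (0.21). With 1 array left out, 1 or 2 of the list rose and 1 to 4 fell.

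Steroid oxidation and conjugation enzymes included the largest fitted rise in the 6 lists. Cyp3a9, a cytochrome P450 of steroid hydroxylation, gave a mean of 722 ± 96.3 in G, under background, and 10291 ± 486 in MAT-LyLu (SD, n = 2 each), at least 4.97-fold higher (adjusted p = 1.4e-07). Cyp3a23-3a1 rose at least 1.54-fold (adjusted p = 7.6e-05), on 1 of its 2 tested probe sets. Cyp7b1, which hydroxylates oxysterols and an androgen diol, fell at least 1.40-fold from 2941 ± 449 to 1019 ± 221 (adjusted p = 2.2e-04), and the phenol sulfotransferase Sult1a1 at least 1.47-fold (adjusted p = 1.5e-04). Of 17 tested, 3 rose, 4 fell and 10 did not pass (median log2 difference 0.04). That is 41.2% called, against 33.3% over all genes tested. The counts were 2 to 4 in each direction with 1 array left out.

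Steroid receptors, with their chaperones and coregulators, held 3 rises, 6 falls and 13 that did not pass, of 22 tested (median log2 difference -0.01). That is 40.9% called, against 33.3% over all genes tested. The glucocorticoid receptor gene Nr3c1 stood at 3892 ± 179 in G and at 3581 ± 106 in MAT-LyLu, a log2 difference of -0.12 (SE 0.08) that missed the threshold (adjusted p = 0.33). Receptor assembly needs chaperones, and those of the list did not all pass. St13, the Hsp70-interacting protein, fell 2.03-fold from 20976 ± 909 to 10312 ± 408 (adjusted p = 8.4e-05), on both probe sets. The immunophilin Fkbp4 fell 1.45-fold from 16507 ± 197 to 11363 ± 778 (adjusted p = 0.0028), on all 3 of its probe sets. Hsp90ab1, Stip1 and Dnaja1, named after their values were seen, did not pass. Their log2 differences were -0.09 (adjusted p = 0.63), -0.06 (adjusted p = 0.66) and -0.40 (adjusted p = 0.14). Rnf4, a ubiquitin ligase and receptor coactivator, rose 1.46-fold (adjusted p = 0.0055). The orphan receptor gene Nr4a1 fell 1.32-fold (adjusted p = 0.0072), a call that ended once MAT-LyLu replicate 0 was dropped (0.055). Dropping single arrays left 2 to 5 rises and 5 falls.

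Of 5 steroid-binding and membrane receptor genes tested, Nenf fell and the other 4 did not pass (20% called, against 33.3% over all genes). Nenf, or neudesin, belongs to the same heme-binding family as Pgrmc1. It stood at 7719 ± 811 in G and 5389 ± 294 in MAT-LyLu, 1.43-fold lower (log2 difference -0.51, SE 0.10, adjusted p = 0.0052), in the opposite direction to Pgrmc1. The count was the same with each array left out.

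Genes known to be androgen-regulated in prostate held 4 rises, 3 falls and 14 that did not pass, of 21 tested (median log2 difference 0.03). The share that passed was 33.3%, the same as the 33.3% over all genes tested. Igf1, named after its values were seen, was among the 14 on its brightest probe set (1.18-fold lower, adjusted p = 0.10). Of its 5 probe sets, M15481_g_at fell 4.82-fold (adjusted p = 6.3e-07) and X06107_i_at 2.58-fold (adjusted p = 1.5e-04). M15481_at did not pass (adjusted p = 0.85), and D00698_s_at was not tested. Odc1, the first enzyme of polyamine synthesis, rose 1.67-fold, with 7843 ± 116 in G and 13100 ± 686 in MAT-LyLu, and both of its probe sets rose (adjusted p = 3.7e-04). The kinase gene Sgk1 rose 1.45-fold (adjusted p = 0.0024). Psap fell 2.75-fold from 36612 ± 2071 to 13367 ± 1919, on all 3 probe sets (adjusted p = 6.1e-05). The membrane peptidase gene Mme fell 1.44-fold (adjusted p = 0.0021) on 1 of 2 probe sets, and was above background on 1 MAT-LyLu array, and no longer passed when signals were floored at background (0.060). Pbsn, or probasin, the classical androgen-driven secretory gene of rat prostate, was under background on all 4 arrays. Dropping single arrays left 2 to 5 rises and 3 to 5 falls.

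**Figure D4:**
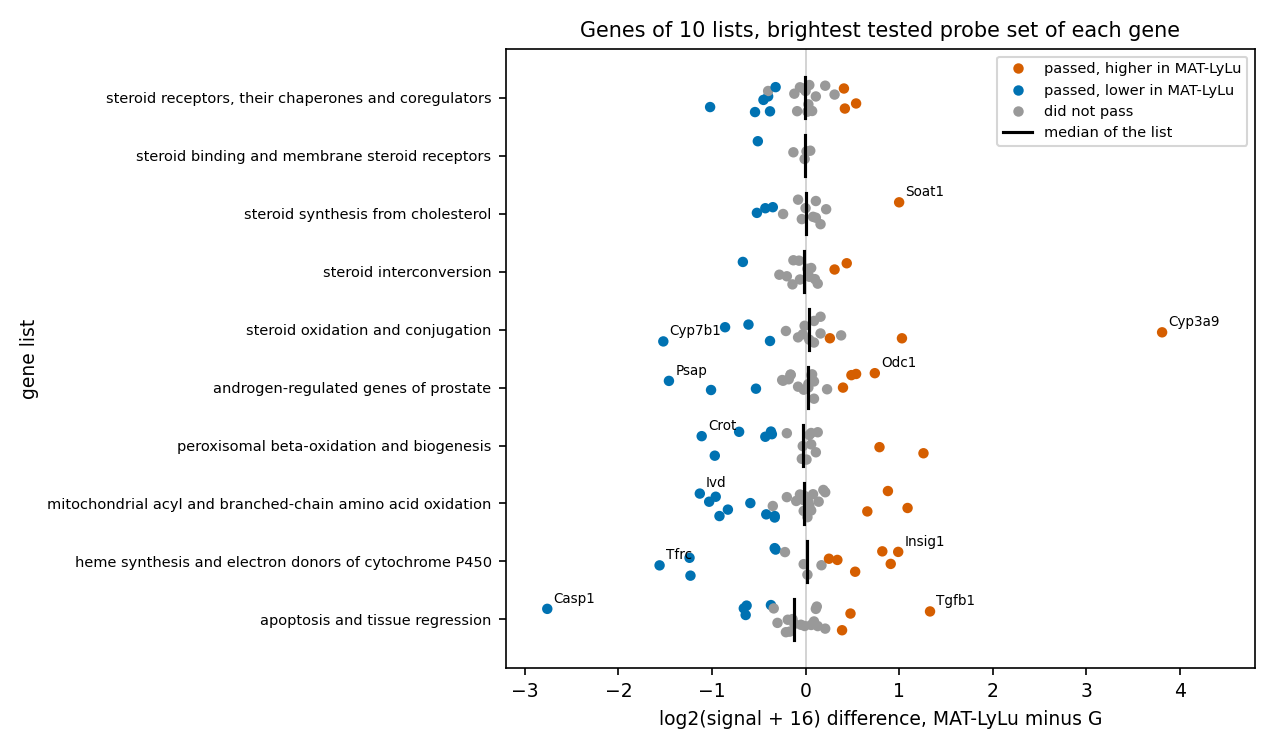
Fitted log2 difference, MAT-LyLu minus G, of each tested gene in 10 lists (1 row each, members left out), orange and blue for genes that passed limma at an adjusted p under 0.05 and grey for the rest; the black bar is the list's median. List medians lie between -0.12 and 0.04 while single genes reach 3.81 (Cyp3a9, with G under background) and -2.76 (Casp1, with MAT-LyLu under background).

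The settings in which the members work were described by 4 further lists. Of their 83 tested genes 14 rose and 25 fell, a share of 47% against 33.3% over all genes tested. These lists were chosen with earlier results of these data known, so their shares are a description only. In the heme synthesis and P450 electron transfer list, chosen for Pgrmc1, 6 of 15 tested genes rose, 5 fell and 4 did not pass (73.3% called, median log2 difference 0.02). Cyp51, the sterol demethylase that Pgrmc1 is known to bind, rose 1.87-fold, with 7410 ± 1358 in G and 13791 ± 244 in MAT-LyLu (adjusted p = 9.5e-04), with 4 of its 5 probe sets past the threshold. Por, the reductase that feeds electrons to microsomal P450 enzymes, rose 1.76-fold from 8411 ± 2146 to 14609 ± 639 (adjusted p = 0.0053), with 2 of its 3 probe sets past the threshold. Insig1, a sterol sensor that binds Scap, rose 1.99-fold (adjusted p = 6.7e-05), and both of its probe sets rose. Cyp51 and Insig1 count among the 6 rises but are sterol genes, neither heme synthesis enzymes nor electron donors. Heme synthesis enzymes of this list went both ways. Urod and Ppox, which act at later steps and were named after their values were seen, rose by log2 differences of 0.34 (adjusted p = 0.013) and 0.25 (adjusted p = 0.047). Alad and Alas2 were also named after their values were seen. Alad did not pass (0.17, adjusted p = 0.46), and Alas2 fell (-0.33, adjusted p = 0.040). Alas1, the first enzyme of heme synthesis, fell at least 1.41-fold (adjusted p = 2.5e-05), the mitochondrial porphyrin transporter gene Abcb6 at least 1.76-fold (adjusted p = 3.1e-05), and Tfrc, which takes up iron, at least 1.88-fold (adjusted p = 1.9e-05). With 1 array left out, 4 to 6 rose and 3 or 4 fell.

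In the peroxisomal list, chosen for Hsd17b4, 2 of 17 tested genes rose, 6 fell and 9 did not pass (median log2 difference -0.03). That is 47.1% called, against 33.3% over all genes tested. Pex5, the import receptor that carries enzymes into peroxisomes, rose 2.40-fold from 5500 ± 127 to 13207 ± 447 (adjusted p = 1.5e-05), and the isocitrate dehydrogenase Idh1 1.72-fold (adjusted p = 0.0026). Crot, which moves shortened acyl chains onto carnitine, fell 2.16-fold from 5758 ± 555 to 2648 ± 42.4 on both probe sets (adjusted p = 6.0e-05). The membrane transporter gene Abcd3 fell 1.64-fold from 20312 ± 2712 to 12356 ± 274 (adjusted p = 0.0018), on 1 of 2 probe sets. Dropping single arrays left 2 rises and 4 to 6 falls.

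In the mitochondrial acyl and branched-chain oxidation list, chosen for Hsd17b10, 9 of 28 tested genes fell, 3 rose and 16 did not pass (median log2 difference -0.02). That is 42.9% called, against 33.3% over all genes tested. Ivd, which acts in leucine breakdown, fell 2.19-fold from 9713 ± 689 to 4424 ± 59.7 on all 3 probe sets (adjusted p = 3.6e-05). Acat1, the thiolase that follows Hsd17b10 in isoleucine breakdown, fell 1.95-fold from 6274 ± 227 to 3216 ± 49.4 (adjusted p = 6.0e-05) on 2 of 3 probe sets, and the enoyl-CoA isomerase Eci1 2.04-fold (adjusted p = 1.2e-04) on 2 of 3. Bckdhb, a subunit of the branched-chain ketoacid dehydrogenase, rose at least 1.41-fold (adjusted p = 4.5e-05). With 1 array left out, 2 or 3 rose and 7 to 10 fell.

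In the apoptosis and regression list, chosen for Clu, 3 of 23 tested genes rose, 5 fell and 15 did not pass (median log2 difference -0.12). That is 34.8% called, near the 33.3% over all genes tested. Casp1, the inflammatory caspase, fell at least 5.46-fold from 11498 ± 921 to 1689 ± 129 (adjusted p = 4.4e-07), on both tested probe sets. Tgfb1, a growth factor that restrains prostate epithelium, rose 2.52-fold from 2849 ± 306 to 7238 ± 1315 (adjusted p = 1.6e-04). The lysosomal protease Ctsb fell 1.58-fold (adjusted p = 0.0011) and the pro-apoptotic Bak1 1.56-fold (adjusted p = 0.0012). With 1 array left out, 2 or 3 rose and 4 to 6 fell.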

How the data were processed

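Biotinylated cRNA from total RNA of 4 samples was read on Affymetrix rat arrays. The authors deposited linear signal intensities per probe set, made with MAS5 per the submitters' processing notes; its version, scaling target and filters are unknown here. No array was rescaled. Of 8799 probe sets, 59 are controls. Names came from the platform annotation, with symbols updated by gene ID through the GRCr8 RefSeq table (7006 probe sets with 1 symbol, 6994 of them matched, 308 with several and 1485 with none or controls).

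Values were tested as log2(signal + 16) after leaving out controls and the 25% of probe sets with the lowest mean of log2(signal + 16). The scale of that mean was not set in the planned design. Filtering on the mean of linear signals was run first, and the log2 mean was then kept, with both results in view, because its counts of calls matched an earlier processing of these data. The linear filter is reported as an alternative added after seeing the data. The 6555 left were fitted with limma 3.58.1 in R 4.3.3 (lmFit, eBayes with intensity trend), 2-sided, Benjamini-Hochberg over all of them, threshold 0.05. Every adjusted p is from that fit unless another setting is named. A fold is 2 to the power of the difference on this scale, which understates changes of dim genes. For a fold written "at least", signals under an array's background level were first raised to that level. The number of arrays limits precision. An exact permutation of 2 against 2 arrays cannot go below p = 0.333, so the p-values rest on the variance limma pools over probe sets. With no separate cultures named, that variance may be technical, and the p-values may not cover variation between cultures or tumours. The fit was tested on simulated data.

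Members and lists were chosen with earlier results of these data known. Named genes were, in each list, the 4 with the smallest p among those that passed without overlap between lines, and 26 given in any case, of which those measured are named; genes named otherwise are marked. The brightest tested probe set stood for its gene. Alternatives were pseudocounts of 1 and 64, no filter or the lower 50% left out, quantile, median and cyclic loess scaling, no trend, a block for the replicate number, leaving out single arrays, a floor at the background level, the mean of a gene's probe sets and, added later, the linear filter.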

Additional observations from a re-analysis of the deposited data

How the results depend on the processing

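The 8 fitted probe sets of the members kept their direction under the 16 alternatives, wherever they passed the filter. Clu ranged from -3.14 to -3.08 in log2 difference, Akr1c14 from -1.65 to -1.03 and Hsd17b10 from 0.15 to 0.25. Pgrmc1 ranged from 2.24, with a floor at the background level, to 4.59. With the lower 50% of probe sets left out, 1 member probe set below 0 was still tested in place of 2, and of the androgen and steroid genes 8 rose and 11 fell, since fewer were tested. Leaving out each array in turn gave 8 to 17 rises and 13 to 19 falls in these lists, and 684 to 1005 higher and 962 to 1308 lower probe sets over the array. The main counts were 891 and 1318. Filtering on the mean of linear signals, an alternative added after the data were seen, gave 908 and 1330, left the counts of the androgen and steroid genes at 13 and 18, and brought in the Akr1c14 probe set S35751_f_at at a log2 difference of -2.37. With quantile normalization 1114 were higher and 1158 lower. With the replicate number as a block, 14 androgen and steroid genes rose and 20 fell, 951 probe sets were higher and 1402 lower, no call of a named gene was lost and Hsd11b1 passed (adjusted p = 0.032). The deviations of same-numbered arrays from their line's mean correlated at r = 0.159 across probe sets. The titles give the arrays only a shared number, so the fit without the block was kept. Background limits what can be said of members and list genes under it.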
